A study of Mus musculus with 6 samples.

Results

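Thyroid hormone uptake and response was followed through 6 genes chosen by name, Dio2, Slco1c1, Thra, Thrb, Thrsp and Klf9, out of 24421 genes listed in each library. All 6 were found and all 6 passed the filter for testing (at least 1 normalized count on average). The libraries came from cells of the olfactory bulb (OB), the first relay of smell in the brain, that had been sorted for the red fluorescent protein TurboRFP. There were 3 libraries from Sox9fl/fl mice (Sox9 KO) and 3 from C57BL/6J mice (control), which the paper also calls Sox9+/+. Both groups had received AAV-GFAP-iCre-P2a-TurboRFP in the OB 4 weeks earlier, so that virus, Cre and TurboRFP were common to both groups and the floxed Sox9 allele was not. Any other difference between the mouse lines cannot be told apart from that of the allele. The virus expresses Cre and TurboRFP from the GFAP promoter, which is active in astrocytes but can also be active in other cells, and the sorted cells were selected by TurboRFP and not by an astrocyte antigen. The mice of this experiment were adult males, and each library was from 1 mouse.

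Thyroid hormone reaches brain cells mainly as the prohormone T4, which must cross membranes through transporters and be converted to the active hormone T3. In the brain, astrocytes are known as the main site of this conversion, which the enzyme encoded by Dio2 carries out, and the T3 they release also serves neurons. T3 acts by binding nuclear receptors that sit on DNA with a retinoid X receptor (RXR) partner and switch target genes between repression and activation.

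The label of the sample, OB astrocytes, and the deletion were checked first. Sox9 was at 5185, 6562 and 4921 normalized counts in the controls and at 52.6, 64.3 and 57.7 in Sox9 KO, so the groups did not overlap and followed their labels. The paper finds Sox9 in astrocytes of the OB, whose markers also fell, and the part of that fall in the fall of Sox9 was not tested. A normalized count is a read count divided by the size factor of its library. The reads on genes ranged from 18242129 to 86906527 per library, and 1 read was worth between 0.395 and 1.58 normalized counts. The astrocyte markers were present in every control, but all 14 fell in Sox9 KO, by log2 fold changes between −5.25 and −2.72, and their summed normalized counts went from between 515874 and 581045 in the controls to between 35309.7 and 45608.1. Of the 12 microglia and macrophage markers all rose, and their sum went from between 178573 and 203850 to between 640416 and 755964. Neuron markers fell in 11 of 12 and oligodendrocyte precursor markers in 6 of 6, endothelial markers fell in 5 and rose in 2 of 10, and none of the 6 choroid plexus markers passed the test. Olfactory ensheathing cell markers fell in 6 of 7, oligodendrocyte markers in 7 of 8, mural markers in 4 of 6 and ependymal and tanycyte markers in 1 of 5, and border macrophage markers fell in 4 and rose in 2 of 7. Of 5 erythroid markers, the 4 haemoglobin genes were at 0 in every library, and Alas2 was called lower (log2 fold change −1.88). The composition of the Sox9 KO libraries thus goes against a label of astrocytes alone, and in such bulk samples fewer cells of a type and less RNA per cell cannot be told apart.

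All 6 genes were lower in Sox9 KO than in control with the size factors of the authors and under each scaling of whole libraries tried, but not relative to the astrocyte markers, as given further on. No Sox9 KO library overlapped a control library for any of them. The ratio of the control mean to the Sox9 KO mean was 14.8 for Dio2, 7.45 for Klf9, 6.58 for Thrb, 6.26 for Slco1c1, 3.98 for Thra and 3.46 for Thrsp. A gene was called changed at an adjusted p under 0.05 (limma on log2(normalized count + 1), Benjamini-Hochberg over the 18413 genes tested) and a change of at least 1.5-fold. Calls in the lower direction made up 28.8% of all genes tested and calls in the higher direction 22.2%. In 34.7% of all genes tested, every Sox9 KO library was below every control library. The median log2 fold change of the 6 genes was −2.70, beside −0.07 over all genes tested.

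**Figure D1:**
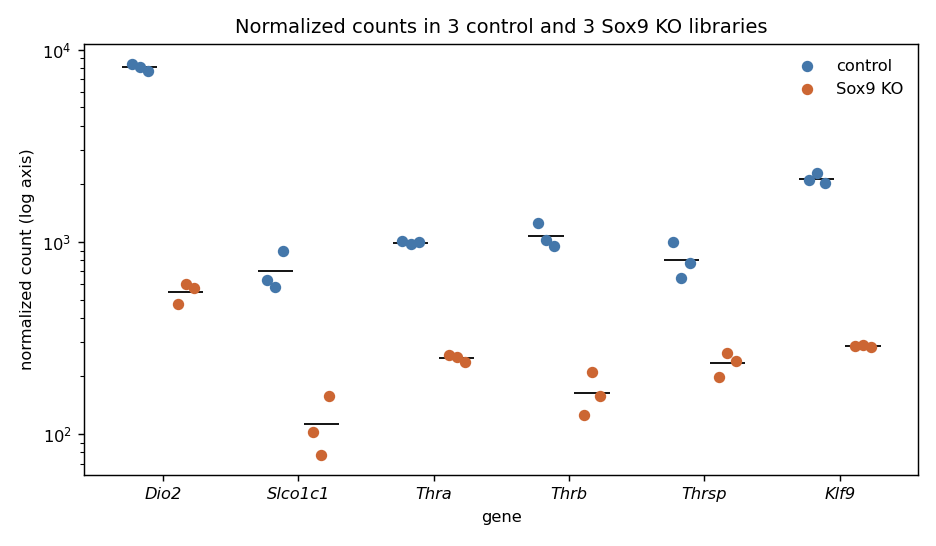
Normalized counts (log axis) of the 6 genes in each of the 3 control and 3 Sox9 KO libraries, with points for libraries and bars for group means. For each gene the 3 Sox9 KO points lie below the 3 control points, and the gap is widest for Dio2, from at least 7776 in the controls to at most 600 in Sox9 KO.

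Slco1c1 encodes an organic anion transporter with high affinity for T4, known from the endothelium of brain vessels and from astrocytes. It lies on the plus strand of chromosome 6 (mm10, 141524368 to 141570177). Its normalized counts were 628, 579 and 895 in the controls and 102, 77.4 and 156 in Sox9 KO. It was the most variable of the 6 genes within both groups, with a mean of 701 ± 170 in control and 112 ± 40.4 in Sox9 KO (SD, n = 3 each), and control replicate 3 and KO replicate 3 were the highest of their groups. The log2 fold change was −2.67 (standard error 0.26, adjusted p = 9.7e-06 by limma), a difference larger than this spread. Its values rested on between 103 and 841 reads. The sum of the endothelial markers changed less, from between 6117 and 8825 to between 4846 and 6344 normalized counts, and its part in the result was not tested.

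Dio2 encodes the type 2 deiodinase, a selenoenzyme that removes an outer-ring iodine from T4 to make T3. It lies on the minus strand of chromosome 12 (mm10, 90724552 to 90738438). The controls held 8464, 8152 and 7776 normalized counts and the Sox9 KO libraries 473, 600 and 571. Both groups were tight, with 8131 ± 345 in control and 548 ± 66.7 in Sox9 KO (SD, n = 3 each). The log2 fold change was −3.90 (95% confidence interval −4.14 to −3.66, adjusted p = 4.4e-09 by limma), the largest of the 6. Sox9 KO kept 6.74% of the control mean. The 6.74% for Dio2 and the 7.24% kept by the summed astrocyte markers came from the same libraries, and the part of the marker change in the change of Dio2 was not tested.

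Thra and Thrb encode the thyroid hormone receptors alpha and beta, ligand-bound transcription factors, and some Thra transcripts also give a variant that does not bind T3. The deposited values hold 1 number per gene, so that transcript variants were not separated. Thra, on the plus strand of chromosome 11 (mm10, 98740638 to 98769006), was at 1005, 970 and 991 normalized counts in the controls and at 257, 252 and 235 in Sox9 KO. It was among the most even genes of the group within each condition, and its log2 fold change was −1.99 (standard error 0.12, adjusted p = 2.5e-07 by limma). Thrb, on the plus strand of chromosome 14 (mm10, 17660261 to 18038090), was at 1258, 1019 and 952 in the controls and at 125, 209 and 156 in Sox9 KO. The lowest control was still 4.56 times the highest Sox9 KO library, and the log2 fold change was −2.73 (standard error 0.20, adjusted p = 9.8e-07 by limma).

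The end of Thra overlaps the end of Nr1d1, a heme-binding repressor of the circadian clock, which is transcribed from the opposite strand. In the GENCODE annotation they shared 263 exon bases, 5.70% of the exon bases of Thra and 8.55% of those of Nr1d1. The sources used here do not say whether the counting used strand, and reads in the shared bases could therefore belong to either gene. Nr1d1 was itself lower, with 3696, 3135 and 2514 normalized counts in the controls and 597, 538 and 319 in Sox9 KO (log2 fold change −2.71, adjusted p = 2.4e-06 by limma). Dio2 shared 100 exon bases, 1.72% of its own, with Gm26512 on the opposite strand.

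Thrsp and Klf9 are known T3-responsive genes. Thrsp encodes Spot 14, a small nuclear protein that promotes lipogenic gene expression in liver, fat and mammary gland, and lies on the minus strand of chromosome 7 (mm10, 97412938 to 97417730). It was at 998, 648 and 772 normalized counts in the controls and at 198, 263 and 239 in Sox9 KO. Its log2 fold change, −1.77 (standard error 0.18, adjusted p = 1.3e-05 by limma), was the smallest of the 6. Klf9 encodes a zinc finger transcription factor induced by T3 and by glucocorticoids in neural cells, and lies on the plus strand of chromosome 19 (mm10, 23141226 to 23168134). It was at 2096, 2280 and 2024 normalized counts in the controls and at 288, 289 and 283 in Sox9 KO. The 3 Sox9 KO values of Klf9 were the closest of any of the 6 genes (286 ± 3.29, SD, n = 3), and the log2 fold change was −2.89 (standard error 0.11, adjusted p = 1.5e-08 by limma).

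To compare levels between genes, reads were divided by exon length in kilobases and by the reads on genes in each library. In the controls Dio2 stood highest at 46.7 ± 1.18 RPKM (SD, n = 3; reads per kilobase, scaled by depth), followed by Klf9 at 14.8 ± 0.55, Thrsp at 12.3 ± 2.69, Thra at 7.16 ± 0.32, Thrb at 4.85 ± 0.65 and Slco1c1 at 4.54 ± 1.28. Klf9 and Thrsp overlapped over libraries, as did Thrb and Slco1c1, and the other neighbours in this order did not. In Sox9 KO the order of the same measure was Thrsp at 3.02 ± 0.58, Dio2 at 2.67 ± 0.47, Klf9 at 1.68 ± 0.09, Thra at 1.52 ± 0.07, Thrb at 0.63 ± 0.19 and Slco1c1 at 0.61 ± 0.24. Here Thrsp and Dio2 overlapped, Klf9 and Thra overlapped, and Thrb and Slco1c1 overlapped. Dio2 thus stood apart from the other 5 genes in the controls and did not in Sox9 KO.

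The promoters of Dio2, Slco1c1 and Klf9 are shown because these genes stand for hormone conversion, uptake and response and their 250 bases before the RefSeq start (GRCm38.p6, the patch release of mm10) held no GENCODE exon. Capitals mark matches to AGGTCA (the half-site of many nuclear receptors), to AACAAT (a core motif of SOX proteins) or to TGACGTCA (the cyclic AMP response element), searched on both strands, the last of which was added after the sequences had been seen.
Dio2, chr12:90739039-90739288, minus strand: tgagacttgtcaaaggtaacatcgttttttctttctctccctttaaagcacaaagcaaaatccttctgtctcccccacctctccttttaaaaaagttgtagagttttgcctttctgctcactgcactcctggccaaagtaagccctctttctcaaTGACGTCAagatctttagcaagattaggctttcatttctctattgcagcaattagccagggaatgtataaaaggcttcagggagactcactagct
Slco1c1, chr6:141524104-141524353, plus strand: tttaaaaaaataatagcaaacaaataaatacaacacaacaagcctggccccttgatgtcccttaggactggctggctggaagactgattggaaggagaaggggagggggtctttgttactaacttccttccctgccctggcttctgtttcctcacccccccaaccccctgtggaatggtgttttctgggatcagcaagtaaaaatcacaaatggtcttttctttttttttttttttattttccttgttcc
Klf9, chr19:23140976-23141225, plus strand: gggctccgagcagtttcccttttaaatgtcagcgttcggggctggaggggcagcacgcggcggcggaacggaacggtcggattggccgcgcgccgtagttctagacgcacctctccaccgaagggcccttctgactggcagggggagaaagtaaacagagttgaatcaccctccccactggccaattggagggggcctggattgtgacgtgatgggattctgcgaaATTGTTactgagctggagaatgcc
The Dio2 promoter held TGACGTCA, which was found in 1.546% of the 32851 RefSeq windows of this length. The Klf9 promoter held AACAAT on the other strand, read here as ATTGTT, which was found in 9.424% of the windows, and the Slco1c1 promoter held no match. AGGTCA was found in 14.02% of the windows and in none of these 3. A pair of AGGTCA repeats in the same direction spaced by 4 bases, the classical thyroid hormone response element, was found in 0.01522% of the windows and also in none of these 3. The windows of Thrb and Thrsp ran into GENCODE exons and are not shown, and 1 of the 2 windows of Thrb held AGGTCA. A match describes these letters and does not show that a factor binds there.

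The wider hormone transport genes did not move in 1 direction. Of 13 tested transporters besides Slco1c1, 4 were lower and 4 higher in Sox9 KO, and the median log2 fold change was −0.04. Slc7a5, the light chain of a large neutral amino acid transporter that also carries thyroid hormone, was lower, with 2771, 3104 and 2383 normalized counts in the controls and 481, 596 and 366 in Sox9 KO (log2 fold change −2.53, standard error 0.17, adjusted p = 6.1e-07 by limma). Slco1a4 and Slco3a1, relatives of Slco1c1, fell by 2.22 and 1.22 on that scale. The aromatic amino acid transporter Slc16a10 (MCT10) rose by 1.83, from between 789 and 877 normalized counts to between 2785 and 3014. Slco2b1 rose by 1.98 on the log2 scale, Slc7a8 by 1.28 and Slc10a1 by 1.52. Slc3a2, the heavy chain that pairs with Slc7a5 or Slc7a8, did not pass the test (log2 fold change 0.15), and neither did Slco1a5 (−2.11) or Slco4a1 (−0.61).

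Of 9 tested genes of deiodination and hormone binding besides Dio2, 2 were lower and 2 higher. Dio3 encodes the deiodinase that inactivates T4 and T3. It was counted with only 51 reads over the 3 controls and 2 over the 3 Sox9 KO libraries, or 16.1, 19.3 and 18.9 normalized counts against 0, 0 and 3.04. The ratio of the group means was 17.9. With the reads pooled over each group and divided by the summed size factors, which gives deeper libraries more weight, the ratio was 38.6, with a counting interval of 10.2 to 328 (95%). Both Sox9 KO reads were in replicate 3, and the size of this difference was poorly set at this depth. Usp20, one of the deubiquitinases that act on the Dio2 protein, fell by 0.75 on the log2 scale and was no longer 1.5-fold lower under quantile normalization (−0.28). Wsb1, part of the ubiquitin ligase that marks the Dio2 protein for degradation, rose by 1.33 on the log2 scale, from between 4967 and 6890 to between 13330 and 15280 normalized counts. Sult1a1, a sulfotransferase with iodothyronines among its substrates, rose by 0.96. The other deubiquitinase, Usp33 (log2 fold change 0.26), the selenocysteine insertion factor Secisbp2 (0.19) and the T3-binding protein Crym (1.04) were not called. Dio1 was listed at 0 in all 6 libraries.

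The 3 RXR partners were higher in Sox9 KO under each scaling of whole libraries tried. The 12 microglia and macrophage markers rose by a median of 1.98 on the log2 scale. The part of this rise in that of the RXR genes and of the other genes named as higher was not tested. Rxra was at 1203, 1130 and 1122 normalized counts in the controls and at 3364, 3596 and 3111 in Sox9 KO (log2 fold change 1.54, standard error 0.09, adjusted p = 2.7e-07 by limma). Rxrg rose by 2.20 on the log2 scale, from between 82.0 and 86.7 to between 342 and 484 normalized counts. Rxrb rose by 0.81, which became 0.48, under 1.5-fold, when totals without the ribosomal RNA precursor Rn45s were made equal.

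**Figure D2:**
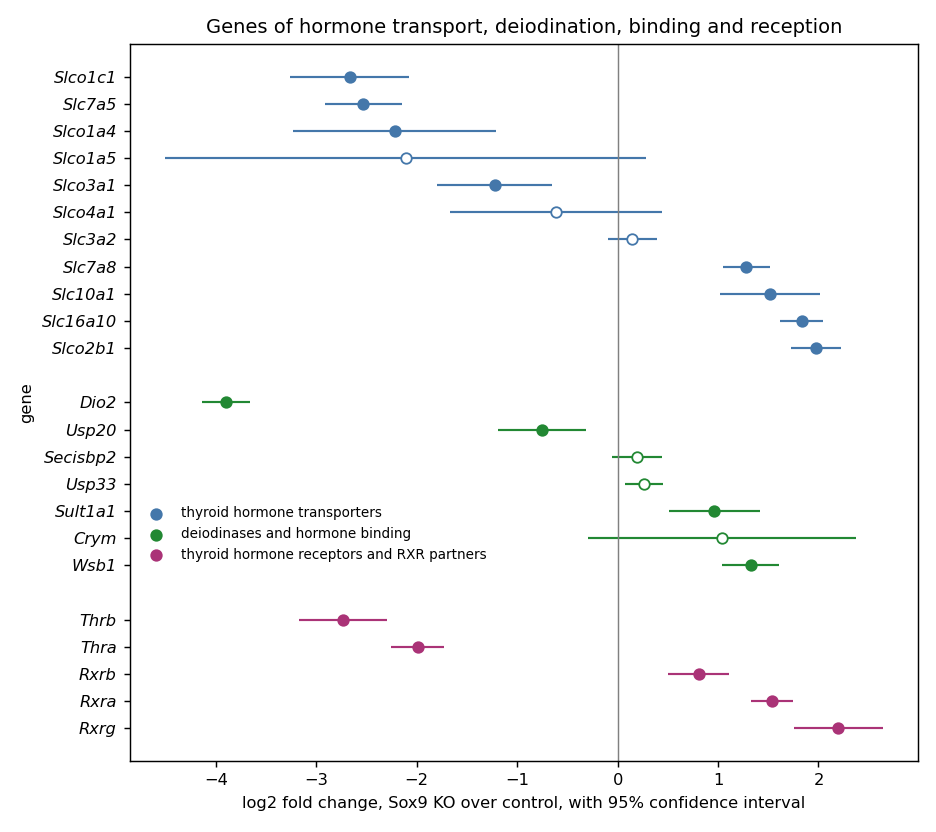
Log2 fold change of Sox9 KO over control with its 95% confidence interval for genes of transport, of deiodination and binding and of reception with a mean of at least 10 normalized counts; filled points were called changed and open points were not. Dio2, Thra, Thrb and Slco1c1 lie on the left with Slc7a5 and Slco1a4, and the 3 RXR genes, Slco2b1 and Slc16a10 on the right.

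Among 18 coregulators of these receptors, 2 were lower and 6 higher, with a median log2 fold change of 0.46. Hr, a T3-induced corepressor named hairless, was lower, with 137, 168 and 129 normalized counts in the controls and 13.9, 10.7 and 18.2 in Sox9 KO (log2 fold change −3.28, standard error 0.33, adjusted p = 1.1e-05 by limma). The coactivators Ncoa3 and Ep300 rose by 1.88 and 1.32 on the log2 scale, and the ubiquitin ligase Trip12 rose by 0.79, which was under 1.5-fold with quantile normalization (0.32) and with equal totals without Rn45s (0.46). The corepressor Ncor1 was higher by 0.58, just under the 1.5-fold threshold.

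Among genes known to respond to T3, most of those called were lower in Sox9 KO. Of 15 tested T3-responsive genes of brain besides Klf9, 9 were lower and 1 higher (median log2 fold change −1.58), and 8 of 13 lipid and metabolic genes besides Thrsp were lower and 1 higher (median −1.44), beside 28.8% and 22.2% over all genes tested. The brain list included Hr and Dio3, described above. The myelin gene Mbp, which oligodendrocytes express and which is also one of the oligodendrocyte markers, fell by 1.09 on the log2 scale. Gbp3, an interferon-induced guanylate-binding protein, rose by 1.17, from between 899 and 1745 to between 2106 and 3820 normalized counts. In the lipid list, Scd1 and Fasn, enzymes of fatty acid desaturation and synthesis, fell by 2.19 and 2.23, and the mitochondrial carrier Ucp3 fell by 4.70, from between 248 and 408 to between 4.96 and 27.6 normalized counts. Ucp2, its relative, rose by 1.58, from between 5132 and 6195 to between 14971 and 17360. Mid1ip1, the paralogue of Thrsp, was at 1542, 1406 and 1297 in the controls and at 1151, 1367 and 1423 in Sox9 KO, so the groups overlapped and it did not pass the test (log2 fold change −0.11, adjusted p = 0.435 by limma).

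The families to which Klf9 and Slco1c1 belong were mixed. Of 15 tested KLF genes besides Klf9, 5 were lower and 7 higher. Klf13, a close relative of Klf9, was at 1450, 1601 and 1400 normalized counts in the controls and at 3555, 3200 and 2719 in Sox9 KO (log2 fold change 1.08, standard error 0.11, adjusted p = 1.5e-05 by limma). The most abundant KLF genes, Klf6, Klf3 and Klf4, rose by 1.96, 0.69 and 1.5 on the log2 scale, and Klf3 was under 1.5-fold with quantile normalization (0.40) and with equal totals without Rn45s (0.36). In the SLCO family, of 10 tested genes besides Slco1c1, 3 were lower and 2 higher, from Slco5a1, which fell by 3.04, to Slco2a1, which rose by 3.82. Slco2a1 was spread over the Sox9 KO libraries, at 486, 334 and 120 normalized counts.

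Klf9 and the receptors were also set beside other nuclear receptors and beside clock and glucocorticoid response genes. Of 37 other nuclear receptors tested, 15 were lower and 8 higher. Nr2e1, an orphan receptor of neural stem cells, fell by 4.75 on the log2 scale, Rorb by 3.63 and Nr1d2, the paralogue of Nr1d1, by 0.76. The estrogen receptor Esr1 rose by 2.58, Nr4a1 by 1.70 and the glucocorticoid receptor Nr3c1 by 1.02. Of 22 clock and glucocorticoid response genes, 14 were lower and 7 higher, beside 28.8% and 22.2% over all genes tested. The median log2 fold change of this list was −1.25, beside −1.58 and −1.44 for the T3-responsive lists of brain and of lipid and metabolic genes. A fall of this kind was therefore not particular to the T3-responsive lists. Hlf, a clock-controlled factor, fell by 4.80, while the glucocorticoid-induced phosphatase Dusp1 rose by 1.96 and the clock repressor Bhlhe41 was not called (0.41).

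**Figure D3:**
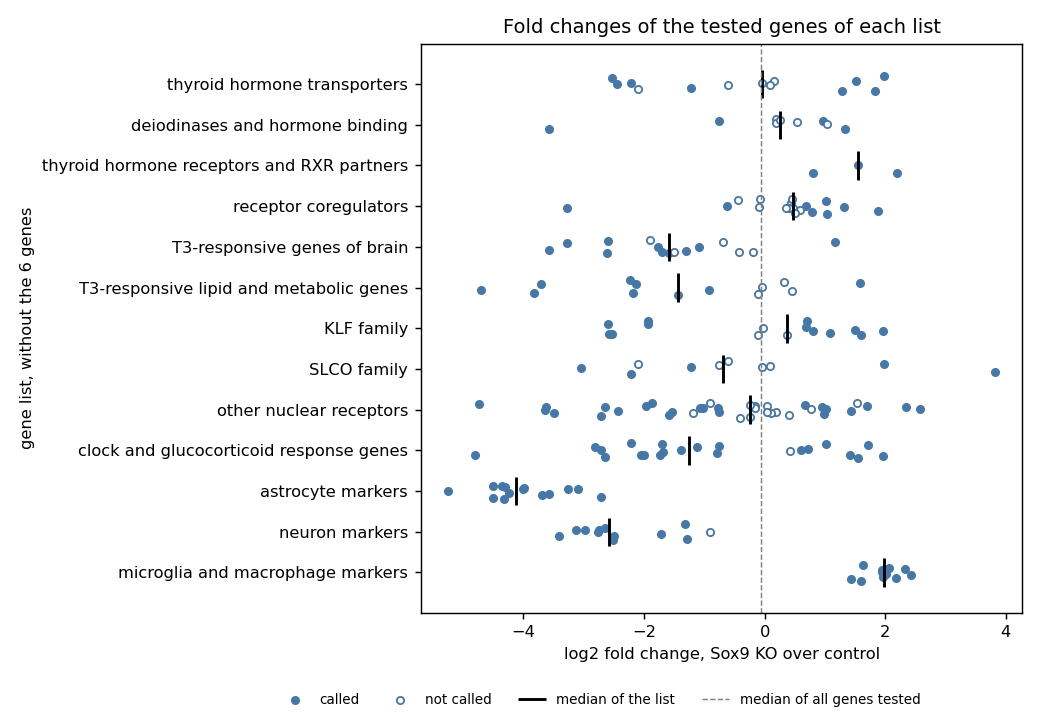
Log2 fold changes of Sox9 KO over control for the tested genes of each list, with filled points for called and open points for uncalled genes, a black bar for the median of the list and a dashed line for the median of all genes tested (−0.07). Points are spread vertically at random. The T3-responsive lists have medians of −1.58 and −1.44, between those of the neuron markers (−2.58) and of all genes tested. The clock and glucocorticoid response list also lies there (−1.25), and the astrocyte markers have the lowest median (−4.13).

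In a ratio of 2 genes within a library the scaling of the library cancels, apart from the 1 added to each value, which matters for genes near 0. With 3 libraries against 3, the smallest two-sided p that an exact permutation test can give is 0.10, so none of the ratios could pass 0.05. The log2 ratio of Thra over Thrb was −0.32, −0.07 and 0.06 in the controls and 1.03, 0.27 and 0.59 in Sox9 KO. The groups did not overlap, and the ratio was higher by 0.74 in Sox9 KO (exact permutation p = 0.10, 0.167 adjusted over the 5 ratios planned), so that Thrb was reduced more than Thra in these libraries. The log2 ratio of Klf9 over the mean of the other 15 KLF genes was 2.79, 2.77 and 2.82 in the controls and 0.29, 0.04 and −0.02 in Sox9 KO, a difference of −2.69 with the same p. Dio2 over Dio3 overlapped between the groups (difference −0.32, exact permutation p = 0.90), but Dio3 was at 0 in 2 of the Sox9 KO libraries and the value depended on the 1 added. With 5 added the difference was −1.91 (exact permutation p = 0.10, the smallest possible), so this ratio was not settled at this depth. Thra over Nr1d1, the overlapping pair, was higher by 0.72 in Sox9 KO without overlap (exact permutation p = 0.10).

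**Figure D4:**
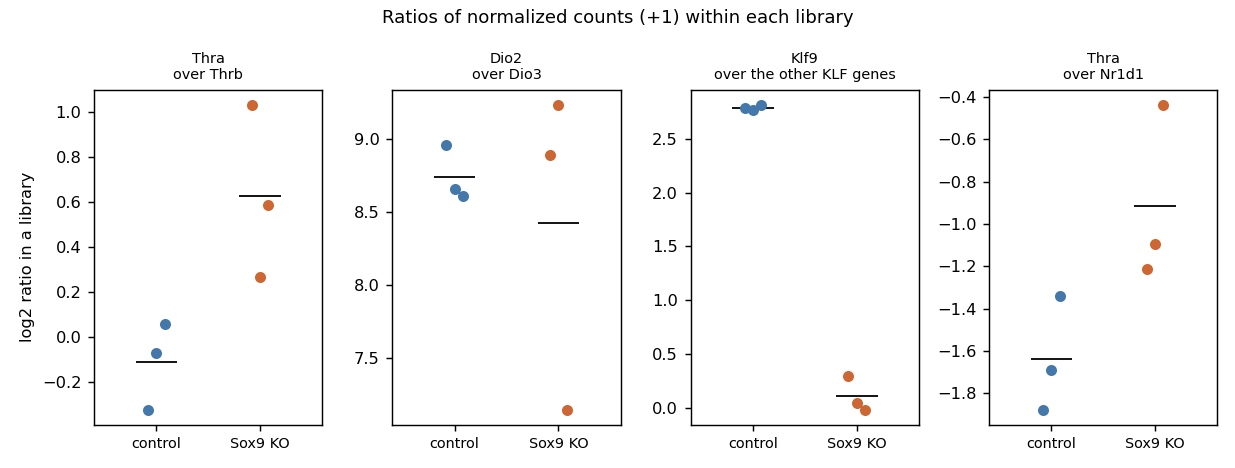
Log2 ratios of normalized counts, each with 1 added, in every library for 4 ratios, with points for libraries, bars for group means and a separate vertical axis for each ratio. Thra over Thrb, Klf9 over the other KLF genes and Thra over Nr1d1 show no overlap between control and Sox9 KO, and Dio2 over Dio3 overlaps with 1 added.

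The direction of the 6 genes depended on which genes were taken as the reference within a library. With the size factors of the authors all 6 were lower. With each library centred on the mean log2 value of its 14 astrocyte markers, Dio2 was at 0.09 (95% confidence interval −0.20 to 0.39, adjusted p = 0.518 by limma), so that its change could not be told from that of the markers, and the other 5 genes were higher relative to the markers. Thrsp then stood at 2.22, Thra at 2.0, Slco1c1 at 1.32, Thrb at 1.26 and Klf9 at 1.10 on the log2 scale. With each library centred on its 12 neuron markers, Dio2 was at −1.57 (adjusted p = 1.4e-07 by limma) and was the only one of the 6 still called lower. Klf9 was then at −0.56, Thrb at −0.40, Slco1c1 at −0.34, Thra at 0.34 and Thrsp at 0.55, with 95% confidence intervals that all included 0. Centring moved the median of all genes tested by 3.99 and by 2.33, so these values describe the genes relative to the markers and not to the whole library. Of the wider thyroid hormone genes named above as lower, Slc7a5, Slco1a4, Slco3a1, Usp20, Hr, Mbp, Scd1, Fasn and Dio3 also turned positive relative to the astrocyte markers, and Ucp3 did not (−0.71).

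**Figure D5:**
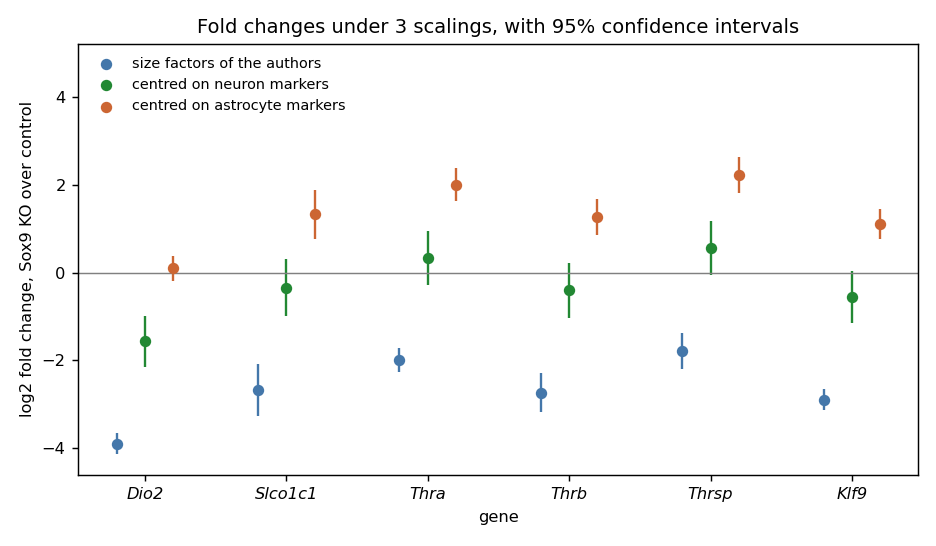
Log2 fold changes of the 6 genes, Sox9 KO over control, with 95% confidence intervals under the size factors of the authors and with each library centred on its neuron markers or on its astrocyte markers. All 6 points lie below 0 under the size factors and above 0 relative to the astrocyte markers, where the interval of Dio2 includes 0.

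For each of the 6 genes, the 3 genes with the most alike profile were sought among 11926 genes with a mean of at least 100 normalized counts. Likeness was the root mean square difference over the 6 libraries of log2(normalized count + 1) after each gene's own control mean had been subtracted, and it is a description over libraries that fall into 2 groups. Dio2 was nearest to Trim9 (0.05), Igsf11 (0.07) and Ephx2 (0.08), and Klf9 to Hdac7 (0.06), Atp6v0e2 (0.06) and Tspan7 (0.07). Thra was nearest to Mfn1 (0.05), Usp53 (0.07) and Pik3ip1 (0.07), and Thrb to Slc25a23 (0.08), Cry2 (0.09) and Irs1 (0.10). Thrsp was nearest to Axin2 (0.11), Ccdc39 (0.12) and Appl2 (0.12). Slco1c1, the most variable of the 6, had no gene closer than Pcp4l1 (0.20), followed by Gng11 (0.21) and Lgi4 (0.23).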

How the data were processed

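Total RNA (10 ng) of TurboRFP-positive OB cells was made into 1 library per mouse. Per the labels and the paper, the authors mapped reads to mm10 with STAR 2.5.0a, used GenomicAlignments and GenomicFeatures for gene-level counting and DESeq2 1.20.0 for normalization. The sources used here do not give the annotation or the strand setting of that counting. The deposited signal values are named RPM, but all values of each library were whole multiples of 1 step (within 0.01 read): each value is a read count over the size factor of its library, and the reads were recovered. Because the planned test assumed a normalized unit, it was kept on these values.

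Genes with a mean of at least 1 (18413) were compared in R 4.3.3 by limma 3.58.1, with a variance trend, on log2(value + 1), two-sided, with Benjamini-Hochberg adjustment over all genes tested; a call needed an adjusted p under 0.05 and 1.5-fold. This scale understates the change of low genes. Each limma p-value sets the difference between the groups against the spread between mice within them. That spread is pooled over both groups of 3 mice and drawn towards that of genes of similar level. Recovered reads were also tested with edgeR 4.0.16 (quasi-likelihood, TMM) and DESeq2 1.42.0. The tests were checked on simulated data in which far fewer genes changed than were called here. That check does not cover a change of composition such as the one in these libraries. Other pseudocounts (5 and 0.1), filters, scalings, a replicate block and leaving out each library were tried. Coordinates, exon lengths and overlaps are from GENCODE on GRCm38, and promoters from RefSeq on GRCm38.p6. Promoter entries were found for 5 of the 6 genes (all but Thra).

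Named were the 6 genes, Sox9, the transport, deiodination, binding and receptor genes with a mean of at least 10, and in the other lists the 3 highest genes, the called genes with the largest fold in each direction, and Hr, Mid1ip1, Klf13, Nr1d1 and Nr1d2. Dio1, under this minimum, and Rn45s were named after their values were seen. The 6 genes and the lists were chosen with earlier results of these data known. Counts of lists leave out the 6 genes, and no set test was run. Some single genes and 1 of the 5 ratios planned are not reported here. Other experiments of the study were not analysed here.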

Additional observations from a re-analysis of the deposited data

How the results depend on the processing

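All 6 genes stayed called lower under each pseudocount, filter, library-wide scaling and tool tried, and with each library left out in turn. Leaving out libraries kept Dio2 between −3.96 and −3.79 and Slco1c1, which moved most, between −2.94 and −2.43 on the log2 scale. Relative to the astrocyte markers the 6 genes stood at 0.094 for Dio2, 1.32 for Slco1c1, 2.0 for Thra, 1.26 for Thrb, 2.22 for Thrsp and 1.10 for Klf9. Of them 0 were then called lower and 5 higher, as were 0 and 64 of the wider thyroid hormone genes (23 and 17 with the size factors) and 133 and 17061 of all genes (5299 and 4090). Centring on neuron markers, chosen after seeing the data, gave −0.34 for Slco1c1, 0.34 for Thra, −0.40 for Thrb, 0.55 for Thrsp and −0.56 for Klf9, with 1 of the 6 called lower, 4 wider genes lower and 52 higher, and 1028 of all genes lower and 13596 higher. This is by construction, since the marker genes fell. With libraries scaled to the same total without Rn45s, 6596 genes were called lower and 2629 higher.

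The share of calls that were lower was 56.4% with the size factors, 43.2% under quantile normalization (median of all genes moved by 0.27), 67.8% with equal totals (moved by −0.23) and 71.5% with equal totals without Rn45s (moved by −0.31). The median moved by 3.99 when centred on astrocyte markers, with 0.774% of calls lower, and by 2.33 on neuron markers, with 7.03%.

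Among the ratios, Dio2 over Dio3 ranged from −0.72 to 0.32 with each library left out and turned sign without KO replicate 3, the library that holds all Dio3 reads of Sox9 KO. It was −1.91 with a pseudocount of 5. Samples with the same number in their titles did not deviate together (correlations −0.25, 0.02 and −0.12). With deviations from means of 3 libraries per group, this cannot show whether they were handled as pairs. A replicate block called the same 6 genes lower (highest adjusted p = 8.8e-05 by limma, for Thrsp), with 5227 of all genes lower and 4048 higher. Depth limits genes with few reads, such as Dio3, with 2 reads in Sox9 KO.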
